A study of Homo sapiens with 6 samples.

Results

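Gene counts of the IKK, TAK1, TBK1 and LUBAC complexes were compared between RPMI8226 cells exposed to GST-PTR1 and to GST. Members were taken by symbol, though with earlier results of these data known: CHUK, IKBKB, IKBKG, IKBKE, TBK1, MAP3K7, TAB2, MAP3K8, RNF31 and RBCK1. They are 10 of the 57773 genes on primary chromosomes and of the 63677 genes in the deposited table. With GST-PTR1, 3 of the 10 genes were higher at an adjusted p under 0.05 and 0 were lower. Of all 16926 genes tested, 9.15% were higher and 1937 genes were lower. MAP3K8 rose 8.03-fold and IKBKE rose 3.02-fold. CHUK rose 1.33-fold, and that call was lost under several other settings. The other 7 genes, IKBKB, IKBKG, TBK1, MAP3K7, TAB2, RNF31 and RBCK1, did not pass the threshold.

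These genes encode the enzymes that carry signals from TNF, Toll-like and IL-1 receptors to NF-κB. The LUBAC ubiquitin ligase builds linear ubiquitin chains at the receptor, and the TAK1 kinase and the IKK complex are held there by ubiquitin-binding subunits. TAK1 phosphorylates IKKβ, the IKK complex phosphorylates the IκB proteins, and IκB is then degraded, which frees NF-κB to enter the nucleus. IKKα, in contrast, acts in the noncanonical pathway on the NFKB2 precursor. TBK1 and IKKε are related kinases best known for phosphorylating IRF3 and IRF7. MAP3K8, also called TPL2, is held by the NFKB1 precursor and, once released, phosphorylates the kinases that activate ERK. Constitutive NF-κB signaling is a known feature of many myeloma tumors and cell lines.

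RPMI8226 is an established human multiple myeloma line, and all libraries came from this 1 line, labelled wild type. GST-PTR1 is the recombinant PTR1 domain of HAPLN1, a link protein of the hyaluronan matrix, fused to glutathione-S-transferase (GST), and the controls received GST alone. Both proteins were given at 100 nM for 6 hr, with 3 libraries of strand-specific mRNA per treatment. The question was how the PTR1 domain changes transcript levels in myeloma cells. The libraries held between 15202503 and 23453473 counts with GST and between 22874133 and 44688737 with GST-PTR1, so that the GST-PTR1 libraries were mostly the deeper ones. Below, values of single libraries are given in order of increasing total, first for GST and then for GST-PTR1. All 8 plasma cell markers examined had more than 3 counts in every library, and their summed level was 1952 to 2440 CPM (counts relative to library totals adjusted by TMM factors) with GST and 2009 to 2205 with GST-PTR1. That sum holds genes that moved in opposite directions. PRDM1, IRF4 and SLAMF7 were higher with GST-PTR1 (log2 fold changes 1.35, 0.65 and 1.52) and SDC1, TNFRSF17 and XBP1 were lower (-1.03, -1.41 and -0.47), all at an adjusted p under 0.05 by edgeR, while CD38 and MZB1 did not pass. The 6 T and NK cell markers were at 3 counts or fewer in every library, with CD2 at 0. Monocyte and macrophage markers summed to 1.12 to 2.10 CPM with GST and 1.39 to 1.70 with GST-PTR1, with FCGR1A higher (log2 fold change 1.22), and stromal and endothelial markers to 0.300 to 0.681 and 0.449 to 0.549 CPM, with COL1A2 and CDH5 at 0. In bulk RNA, a change in the number of cells of a kind and a change in RNA per cell cannot be told apart.

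Promoter windows from RefSeq (build GRCh38.p14) were read for 9 of the 10 genes, IKBKB being left out. There were 16 windows in all, each running from 250 bases before a transcription start to 50 bases after it. They were searched on both strands for the κB consensus, the site bound by NF-κB dimers, and for the AP-1 site TGANTCA. The κB consensus matched 4 windows of 2 genes, MAP3K8 and TAB2, and the AP-1 site matched 3 windows. The AP-1 matches were in windows of IKBKG, which did not pass the threshold, and in the second window of MAP3K8 (TGAGTCA at position -51). Over all 35116 windows in the RefSeq table, 5.91% held a κB match and 7.71% an AP-1 match. MAP3K8 had a κB match in each of its 3 windows. In the first window the match GGAATTTCCC begins at position -29 from the transcription start, and the second window overlaps the first and holds the same site. The third window has another match, GGGGATTCCC, at position -207. The windows of MAP3K8 and IKBKE, the genes with the largest changes, are shown with that of TBK1, the closest relative of IKBKE, which did not pass the threshold. The capitals mark the κB matches. The IKBKE and TBK1 windows had no κB match, which says only that these letters are not in these 300 bases.
MAP3K8, the first window (chr10:30433771-30434070, plus strand): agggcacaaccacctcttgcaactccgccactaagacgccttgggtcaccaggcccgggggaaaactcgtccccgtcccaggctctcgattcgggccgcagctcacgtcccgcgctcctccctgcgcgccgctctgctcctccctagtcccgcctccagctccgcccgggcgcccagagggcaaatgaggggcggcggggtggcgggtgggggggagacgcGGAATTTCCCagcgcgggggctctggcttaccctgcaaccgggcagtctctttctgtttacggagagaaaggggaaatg
MAP3K8, the third window (chr10:30434396-30434695, plus strand): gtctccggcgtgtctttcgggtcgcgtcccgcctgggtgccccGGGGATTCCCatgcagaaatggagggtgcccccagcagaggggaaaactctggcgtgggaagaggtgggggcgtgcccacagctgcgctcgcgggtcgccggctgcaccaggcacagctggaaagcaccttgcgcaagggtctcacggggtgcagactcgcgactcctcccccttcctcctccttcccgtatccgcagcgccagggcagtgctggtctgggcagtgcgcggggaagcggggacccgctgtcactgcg
IKBKE window (chr1:206470226-206470525, plus strand): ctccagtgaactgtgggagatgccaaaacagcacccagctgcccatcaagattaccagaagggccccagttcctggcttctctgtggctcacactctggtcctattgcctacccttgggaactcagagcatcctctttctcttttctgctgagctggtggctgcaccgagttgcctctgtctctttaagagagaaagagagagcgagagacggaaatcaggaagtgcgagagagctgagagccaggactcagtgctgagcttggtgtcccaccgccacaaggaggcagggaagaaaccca
TBK1 window (chr12:64451870-64452169, plus strand): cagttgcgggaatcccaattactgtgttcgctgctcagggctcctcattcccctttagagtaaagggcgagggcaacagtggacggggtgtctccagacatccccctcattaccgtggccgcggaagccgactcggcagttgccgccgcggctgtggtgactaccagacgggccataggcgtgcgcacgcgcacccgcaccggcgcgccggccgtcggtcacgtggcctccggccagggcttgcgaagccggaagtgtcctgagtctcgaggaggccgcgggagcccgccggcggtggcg

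Levels below are TMM-scaled CPM, that is, deposited counts relative to library totals that edgeR's trimmed-mean factors (TMM) had adjusted. Changes are log2 fold changes of GST-PTR1 over GST by the quasi-likelihood test of edgeR, and p-values were adjusted by Benjamini-Hochberg over all 16926 genes tested. In that test, 20.6% of all genes tested passed an adjusted p of 0.05 in either direction, 9.15% were higher with GST-PTR1, and 14.3% passed both the adjusted p and a 1.5-fold change. For the 10 complex genes these counts were 3, 3 and 2. None of the 10 was lower with edgeR, also at an unadjusted p under 0.05, nor with DESeq2's or limma's test (0 genes each). Of all 16926 genes tested, 1937 were lower at an adjusted p under 0.05. Among as few as 10 genes, a count of 0 lower therefore does not set them apart. All 10 passed the expression filter, and none was near the floor of 3 counts, the lowest being 193 counts of MAP3K8 in the smallest GST library. The median log2 fold change of the 10 genes was 0.21, against 0.01 for all genes tested. Without trimmed-mean scaling, with library totals only, the median of all genes tested shifted by -0.20 and that of the 10 genes to 0.01. Relative to the median of all genes, each of the 10 log2 fold changes was nearly the same under both scalings, for example 0.41 and 0.41 for CHUK.

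**Figure D1:**
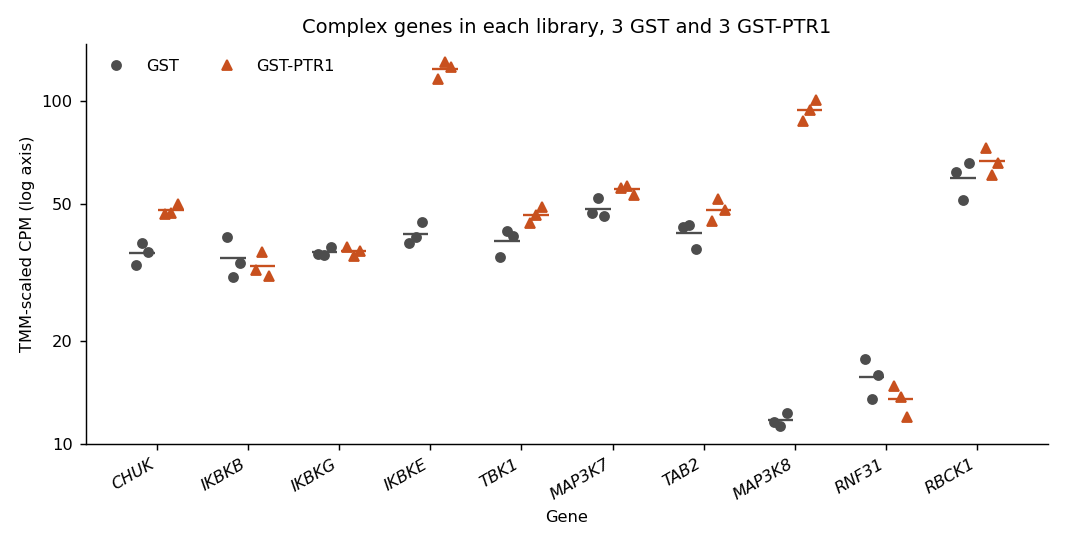
TMM-scaled CPM on a log axis for the 10 complex genes, with 1 point per library (circles GST, triangles GST-PTR1, 3 each, in order of increasing library total) and a line at each mean. MAP3K8 and IKBKE separate most widely, at means of 11.7 against 94.3 CPM and 41.0 against 124 CPM, and 4 genes (IKBKB, IKBKG, RNF31 and RBCK1) overlap between treatments.

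MAP3K8, the kinase TPL2 (ENSG00000107968, chromosome 10 of GRCh37 from 30722866 to 30750762), showed the largest change among the 10 genes. It was at 11.6, 11.3 and 12.3 CPM in the GST libraries and at 87.7, 94.3 and 101 CPM in the GST-PTR1 libraries. The values did not overlap, and each GST-PTR1 library was several times above the highest GST library. edgeR gave a log2 fold change of 3.01 with a standard error of 0.11 (adjusted p = 2.29e-08), which is 8.03-fold with a 95% interval of 6.77 to 9.53. The call held under all 14 alternative settings, with log2 fold changes from 2.81 to 3.06. Its promoter windows are the ones shown above with κB matches. TAB2, the other gene with a κB match, did not pass the threshold (log2 fold change 0.23, adjusted p = 0.169 by edgeR). The level of MAP3K8 per exon length rose from the 43.7th to the 84.8th percentile of the genes tested.

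IKBKE encodes IKKε, the inducible member of the pair of IKK-related kinases (ENSG00000143466, chromosome 1 from 206643791 to 206670223). It was at 38.6, 40.1 and 44.3 CPM with GST and at 116, 130 and 126 CPM with GST-PTR1. The groups did not overlap, and the spread within each was small against the gap between them. edgeR gave a log2 fold change of 1.59 with a standard error of 0.10 (adjusted p = 1.46e-06), or 3.02-fold with a 95% interval of 2.58 to 3.54, and the call held under all 14 alternatives. The deposited table gives Ensembl IDs without symbols, and the name table used here ties this symbol to the ID of a patch copy with 0 counts. The row used here was identified by its exons. Of its 23 exons, 17 match an exon of the patch copy in length and, within 50 bases, in offset. The next best row has 1 such exon.

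TBK1, the partner kinase that most cells express constitutively (ENSG00000183735, chromosome 12 from 64845660 to 64895888), was at 35.2, 41.7 and 40.5 CPM with GST. With GST-PTR1 it was at 44.0, 46.5 and 49.1 CPM, each above every GST library. Its log2 fold change of 0.25 (95% interval 0.01 to 0.49) had an unadjusted p of 0.0439 and an adjusted p of 0.13 in edgeR's test, so it did not pass the threshold. The ratio of IKBKE to TBK1, per exon length, was 1.46, 1.28 and 1.46 with GST and 3.51, 3.73 and 3.43 with GST-PTR1. The mean log2 ratio differed by 1.34 between treatments. An exact two-sided permutation test gave p = 0.1 (n = 3 each), the smallest value that 3 libraries against 3 can give, and 0.12 after Benjamini-Hochberg adjustment over the 6 ratios compared.

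In the IKK complex itself, CHUK encodes the kinase IKKα (ENSG00000213341, chromosome 10 from 101948055 to 101989376). It was at 33.2, 38.5 and 36.4 CPM with GST and at 46.9, 47.2 and 50.3 CPM with GST-PTR1, without overlap. edgeR gave a log2 fold change of 0.42 with a standard error of 0.10 (adjusted p = 0.0175), or 1.33-fold with a 95% interval of 1.14 to 1.57. The call held in 8 of 14 alternatives, which gave log2 fold changes from 0.22 to 0.47. It was lost with library totals (adjusted p = 0.161 by edgeR) and when the largest GST library (0.0613), the middle GST-PTR1 library (0.0584) or the largest GST-PTR1 library (0.0507) was left out.

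IKBKB, the catalytic subunit IKKβ that phosphorylates IκBα in the canonical pathway (ENSG00000104365, chromosome 8 from 42128820 to 42189973), was at 40.3, 30.8 and 33.8 CPM with GST and at 32.1, 36.4 and 31.0 CPM with GST-PTR1. The treatments overlapped, and the smallest GST library was the highest of the 6. The log2 fold change was -0.07 (95% interval -0.36 to 0.21, adjusted p = 0.711 by edgeR).

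IKBKG encodes NEMO, the regulatory subunit that binds ubiquitin chains and is required for canonical IKK activity (ENSG00000073009, chromosome X from 153769414 to 153796782). It was at 35.7, 35.5 and 37.6 CPM with GST and at 37.7, 35.4 and 36.6 CPM with GST-PTR1. The 6 libraries were nearly level, and the log2 fold change was 0.01 (95% interval -0.21 to 0.23, adjusted p = 0.947 by edgeR). The value is uncertain, because a near-identical pseudogene copy lies on the same chromosome and reads that map to both were not counted. Like that of IKBKE, this row was identified by its exons. Of its 15 exons, 7 match an exon of a patch copy in length and, within 50 bases, in offset, against 1 in the next best row.

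The ratios within the IKK complex do not depend on the scaling between libraries. The ratio of IKBKB to CHUK per exon length was 0.837, 0.551 and 0.640 with GST and 0.472, 0.533 and 0.425 with GST-PTR1. The smallest GST library stood above the other 2, and the groups failed to overlap only narrowly, at 0.551 against 0.533. IKBKG to CHUK gave 0.999, 0.855 and 0.959 with GST and 0.746, 0.697 and 0.676 with GST-PTR1. The mean log2 ratios were lower with GST-PTR1 by -0.49 and -0.41, respectively, each at the exact permutation p = 0.1 (two-sided, n = 3 each, adjusted p = 0.12). Without the smallest GST library the difference for IKBKB to CHUK was -0.32. Transcripts of the IKKα subunit were thus higher relative to those of IKKβ and NEMO in every GST-PTR1 library, at a p that this design cannot bring below 0.1.

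MAP3K7 encodes the kinase TAK1, which phosphorylates IKKβ and the p38 and JNK kinase kinases (ENSG00000135341, chromosome 6 from 91223292 to 91296764). It was at 47.2, 52.3 and 46.2 CPM with GST and at 56.0, 56.7 and 53.2 CPM with GST-PTR1. The groups did not overlap, but the gap between the highest GST and the lowest GST-PTR1 library was under 1 CPM. The log2 fold change was 0.19 (95% interval -0.03 to 0.41, adjusted p = 0.207 by edgeR).

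TAB2, the adaptor that ties TAK1 to ubiquitin chains (ENSG00000055208, chromosome 6 from 149539777 to 149732749), was at 43.0, 43.6 and 37.2 CPM with GST and at 44.9, 51.9 and 48.0 CPM with GST-PTR1. The lowest GST-PTR1 library lay just above the highest GST library. Its log2 fold change of 0.23 (95% interval -0.02 to 0.47, adjusted p = 0.169 by edgeR) was close to that of its kinase. The ratio of TAB2 to MAP3K7 overlapped between treatments, at 1.01 to 1.14 with GST and 1.01 to 1.15 with GST-PTR1 (exact permutation p = 0.8, n = 3 each). Counting CHUK, IKBKE, TBK1, MAP3K7, TAB2 and MAP3K8, 6 of the 10 genes were higher in every GST-PTR1 library than in any GST library. Of all genes tested, 19.2% were. Both counts use TMM-scaled CPM. Relative to library totals alone, TBK1, MAP3K7 and TAB2 overlapped. Their means with GST and GST-PTR1 were then 41.9 and 43.4, 52.0 and 51.8, and 44.2 and 45.1 CPM, respectively.

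RNF31 encodes HOIP, the catalytic subunit of LUBAC (ENSG00000092098, chromosome 14 from 24615892 to 24629870). It had the lowest mean level per exon length of the 10 genes in both treatments, and was at 17.6, 13.5 and 15.9 CPM with GST and at 14.8, 13.7 and 12.02 CPM with GST-PTR1. The log2 fold change was -0.22 (95% interval -0.53 to 0.09, adjusted p = 0.291 by edgeR), and the treatments overlapped. A gene annotated on the same strand, ENSG00000259529, shares 34.8% of its exon bases, and reads on the shared part were not counted, so the level is incomplete.

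RBCK1 encodes HOIL-1, an accessory LUBAC subunit (ENSG00000125826, chromosome 20 from 388142 to 411610). It was at 62.0, 51.5 and 66.2 CPM with GST and at 73.0, 61.1 and 66.2 CPM with GST-PTR1, and the treatments overlapped. Its log2 fold change was 0.16 (95% interval -0.11 to 0.42, adjusted p = 0.377 by edgeR). The third LUBAC subunit, SHARPIN, which is not among the 10 genes, had a log2 fold change of -0.05 (adjusted p = 0.785 by edgeR). None of the 3 LUBAC genes passed the threshold. The ratio of RBCK1 to RNF31 was 4.55, 4.95 and 5.40 with GST and 6.40, 5.79 and 7.15 with GST-PTR1, without overlap (log2 difference 0.37, exact permutation p = 0.1, n = 3 each, adjusted p = 0.12).

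**Figure D2:**
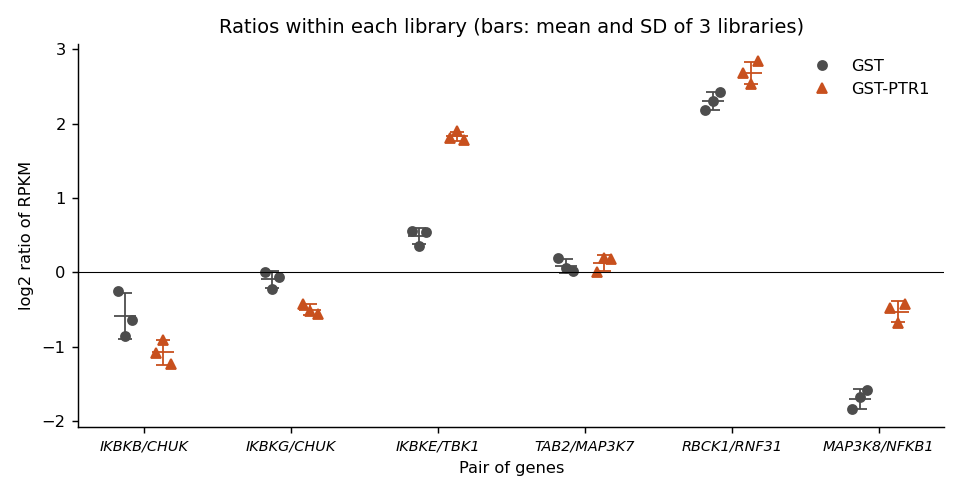
The log2 ratio of 2 genes' levels per exon length in each library (circles GST, triangles GST-PTR1), with the mean and SD of 3 libraries per treatment. Of the 6 ratios, 5 do not overlap between treatments and TAB2/MAP3K7 does. Each of the 5 except RBCK1/RNF31 holds CHUK, IKBKE or MAP3K8, the complex genes past the threshold. IKBKB/CHUK and IKBKG/CHUK also share CHUK, so the ratios are not independent. Of the 16926 single genes tested, 10087 overlapped between treatments in TMM-scaled CPM, and no such share was computed for ratios of gene pairs. IKBKE/TBK1 and MAP3K8/NFKB1 shift most, by 1.34 and 1.17.

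Compared per exon length, as RPKM (TMM-scaled CPM divided by the exon length in kilobases), RBCK1 was highest with GST at 15.6 ± 1.98 RPKM (SD, n = 3). IKBKE followed at 11.5 ± 0.824, and neither range touched its neighbor. TBK1 (8.22), TAB2 (7.16) and MAP3K7 (6.72) formed a run in which each overlapped the next. CHUK at 5.20 ± 0.387 RPKM overlapped IKBKG at 4.86 ± 0.154. At the bottom, IKBKB (3.48), MAP3K8 (3.26) and RNF31 (3.15) also overlapped from 1 to the next. With GST-PTR1 the order changed at the top. IKBKE was first at 34.7 ± 2.07 RPKM and MAP3K8, ninth of 10 with GST, was second at 26.2 ± 1.86, both above RBCK1 at 17.4 ± 1.55. Below them the remaining 7 genes kept their order, TBK1, TAB2, MAP3K7, CHUK, IKBKG, IKBKB and RNF31, with means from 9.77 down to 2.71 RPKM. Among these, TAB2 and MAP3K7 were the only neighbors whose ranges overlapped. The exon length counts every exon annotated for a gene, so these levels depend on the annotation as well as on the reads. For RNF31 and IKBKG, reads shared with another gene or copy were not counted, while the full exon length was used. Their levels are therefore incomplete, and their low places in the order are uncertain.

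**Figure D3:**
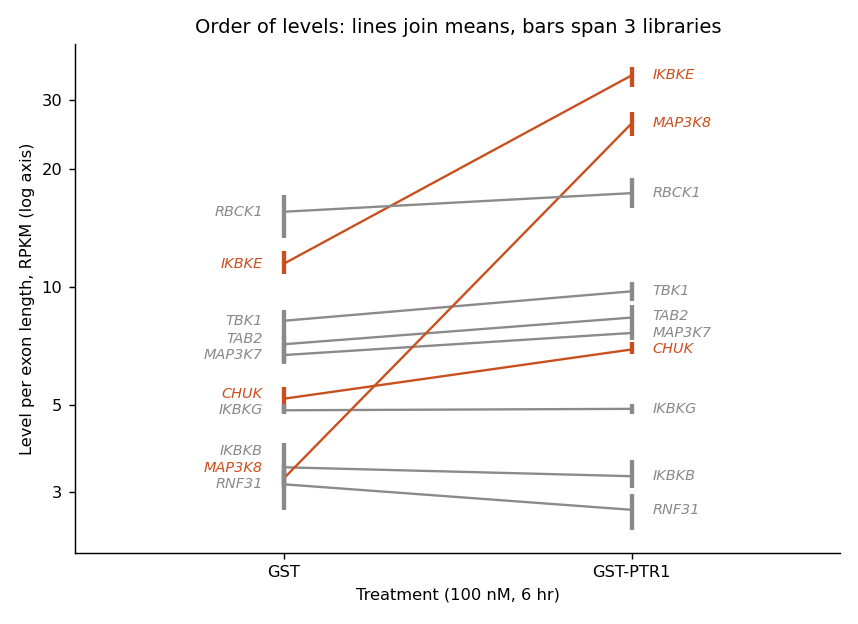
Mean level per exon length (RPKM, log axis) of the 10 genes with GST and with GST-PTR1, with vertical bars from the lowest to the highest of 3 libraries and orange for the 3 genes past the threshold. MAP3K8 moves from 3.26 to 26.2 RPKM and crosses 7 genes, while IKBKB, IKBKG and RNF31 stay at the bottom of the order. The levels of IKBKG and RNF31 are incomplete, since reads shared with another copy or gene were not counted.

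The other genes of the pathway were read from 4 lists of 45 genes in all, of which 44 were tested, 15 were higher and 3 were lower with GST-PTR1 (edgeR, adjusted p under 0.05). With library totals in place of trimmed-mean scaling, 11 were higher and 5 lower. Of all 16926 genes tested, 9.15% were higher and 1937 genes were lower with trimmed-mean scaling. Among 10 further subunits and scaffolds of the complexes, 2 were higher and 1 was lower, with a median log2 fold change of 0.17. TNIP2, the partner that holds MAP3K8 together with the NFKB1 precursor, had a log2 fold change of 0.80 (adjusted p = 0.0027 by edgeR). TANK, a scaffold of TBK1 and IKKε, had 0.53 (adjusted p = 0.00854 by edgeR), and TBKBP1, another TBK1 scaffold, fell by 0.68 on the log2 scale (adjusted p = 0.0173 by edgeR). A further TBK1 scaffold of the list, AZI2, did not pass, at a log2 fold change of 0.03 (adjusted p = 0.895 by edgeR). The TAK1 subunits TAB1 and TAB3 did not pass, with log2 fold changes of -0.26 and 0.12.

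Of 12 upstream adaptors, ubiquitin enzymes and kinases, 1 was higher and 2 were lower, with a median of -0.02. Of all genes tested, 9.15% were higher and 20.6% were called in either direction, so these counts do not set the list apart. TRAF5, an adaptor of TNF family receptors, went from 36.3 to 15.2 CPM and fell by 1.25 on the log2 scale (adjusted p = 6.37e-05 by edgeR). TRAF3, which restrains the noncanonical kinase NIK, went from 4.64 to 9.33 CPM, with a log2 fold change of 1.02 (adjusted p = 0.00276 by edgeR). MAP3K3, the kinase MEKK3, fell by 0.57 on the log2 scale (adjusted p = 0.0253 by edgeR).

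Of 9 genes that act as brakes on the complexes, 5 were higher and 0 were lower, with a median of 0.46. Of all 16926 genes tested, 9.15% were higher and 1937 genes were lower. The 5 higher brakes were TNFAIP3, TNIP1, CYLD, USP18 and OTULIN. OTULIN lay below the 4 largest changes of the list and was named after its value was seen. TNFAIP3, the ubiquitin editor A20, had a log2 fold change of 2.73 (adjusted p = 7.47e-08 by edgeR). TNIP1, an A20 partner that binds ubiquitin, stood at 126 CPM with GST and 446 CPM with GST-PTR1, with a log2 fold change of 1.82 (adjusted p = 2.19e-06 by edgeR). CYLD, a deubiquitinase of linear and K63-linked chains, stood at 79.7 and 174 CPM, with a log2 fold change of 1.13 (adjusted p = 1.46e-05 by edgeR). OTULIN, the deubiquitinase specific for the chains that LUBAC builds, had 0.46 (adjusted p = 0.0105 by edgeR) and did not overlap between treatments. USP18, a protease that removes ISG15, had 0.77 (adjusted p = 0.0326 by edgeR), but its libraries overlapped, with 9.55, 10.6 and 17.3 CPM for GST against 22.1, 16.7 and 25.1 CPM for GST-PTR1.

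Of 14 substrates of these kinases 13 were tested, MAP2K6 having too few counts, and 7 were higher and 0 lower, with a median of 0.35. In both of these lists, 0 genes were lower at an unadjusted p under 0.05 or with DESeq2's or limma's test. With library totals 1 substrate, MAP2K3, was lower. Of all 16926 genes tested, edgeR called 9.15% higher and 1937 genes lower at an adjusted p under 0.05. In lists as short as these, a count of 0 lower therefore does not set them apart. NFKBIA, which encodes the IκBα protein that IKKβ marks for degradation, was at 57.5, 57.6 and 67.7 CPM with GST and at 459, 513 and 511 CPM with GST-PTR1. Its log2 fold change was 3.02 (adjusted p = 3.39e-08 by edgeR). NFKB2, the precursor that IKKα acts on, had a log2 fold change of 2.09, NFKB1 had 1.84, and NFKBIE, another IκB, had 1.23, all past the threshold. The IRF7 gene was among the others that passed and IRF3 was not, at log2 fold changes of 0.74 and -0.13. None of the 5 MAP2K genes tested, which encode substrates of MAP3K8 or TAK1, passed, and their log2 fold changes lay between -0.24 and 0.03.

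MAP3K8 was compared with NFKB1 because the p105 precursor binds and stabilizes the kinase. Both genes rose, but the ratio of MAP3K8 to NFKB1 per exon length went from 0.279, 0.312 and 0.333 with GST to 0.719, 0.621 and 0.745 with GST-PTR1. The groups did not overlap, and the log2 ratio differed by 1.17 (exact permutation p = 0.1, two-sided, n = 3 each, adjusted p = 0.12).

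**Figure D4:**
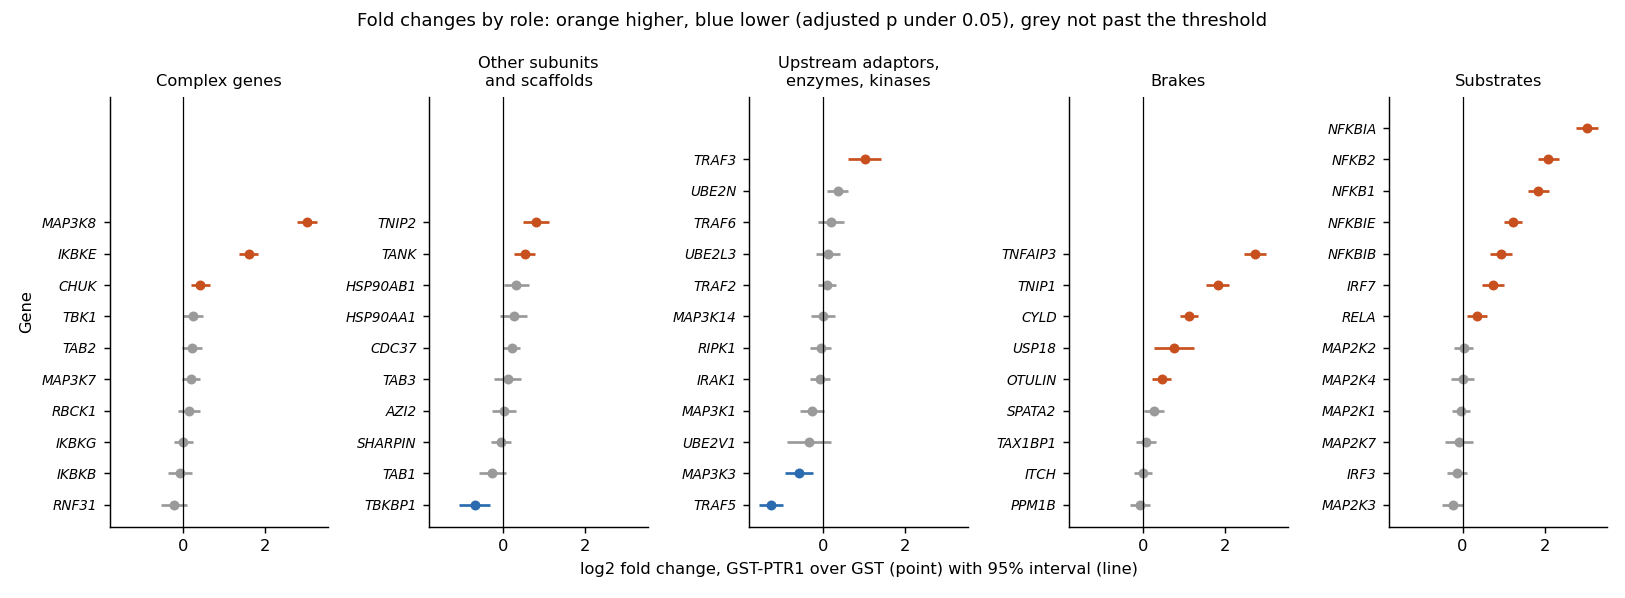
Log2 fold change of GST-PTR1 over GST (points) with its 95% interval from edgeR (lines) for the 10 complex genes and the 4 lists of other pathway genes, 44 of which were tested. Orange marks higher and blue lower genes at an adjusted p under 0.05 and grey those that did not pass. Calls number 3 of 10 complex genes, 3 of 10 further subunits, 3 of 12 upstream genes, 5 of 9 brakes and 7 of 13 substrates. Of all genes tested, 20.6% were called in either direction.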

How the data were processed

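Per the labels and the file header, the authors deposited read counts per gene, made on GRCh37 (Ensembl release 75) by featureCounts 1.5.0-p1 from strand-specific mRNA libraries. Reads on several genes or places were left out. The submitters' processing notes name Subread, without a version or a role. No value was normalized by the authors. The columns give the treatment of each library but their numbers differ from those of the sample titles, so libraries were not paired. The labels call the samples biological replicates without naming separate cultures, so p-values measure the spread between these samples. No 2 libraries of a treatment agreed within sampling noise (smallest chi-square per gene 7.66).

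Genes were matched by Ensembl ID, and 1 listed marker had no row. From the counts, edgeR 4.0.16 (R 4.3.3; TMM factors, filterByExpr, glmQLFit, glmQLFTest) tested 16926 genes with Benjamini-Hochberg adjustment. RPKM used TMM-scaled totals and the deposited exon lengths. Ratios were compared with exact permutation tests (scipy 1.17.1), which cannot go below 0.1 here. A count of 3 was worth 0.0671 to 0.197 CPM, a floor that covers counting error only. The test was also tried on data simulated from the means and dispersion of the main fit. There it recovered 22.9% of genes changed by 0.5 on the log2 scale and 95.6% of those changed by 1.5. Only 200 genes were changed there, with 16710 to 16732 tested, while 20.6% of genes passed in the real data. With so few changed genes the Benjamini-Hochberg adjustment is stricter. The shares were also not computed for the complex genes alone, so they do not give the power of the test for those genes. A gene that did not pass may still have changed by a small amount.

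The alternatives were DESeq2 1.42.0 (its size factors or its test), library totals, limma 3.58.1 voom, filters of 1 count in any or 10 counts in every library, omission of single libraries, a 1.5-fold threshold and, added after seeing the data, 2 fits of the 4 libraries that share column numbers. Named are the 10 members, the 4 largest changes past the threshold in each list, and SHARPIN, TAB1, TAB3 and TANK. NFKBIB and RELA are not described singly. AZI2, IRF3, IRF7, OTULIN, the MAP2K genes and the marker genes with fold changes were named after their values were seen. Members, lists and tests were chosen with earlier results of these data known.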

Additional observations from a re-analysis of the deposited data

How the results depend on the processing

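MAP3K8 and IKBKE passed the threshold under all 14 alternatives, and the 7 genes that did not pass in the report passed under none. The count over all genes tested was 3486 in the report. It fell to between 2288 and 3349 when 1 library was left out, with 2288 both without the largest GST library and without the middle GST-PTR1 library. With library totals, 19.7% of the calls were higher, against 44.4% with TMM factors.

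Of the 10 genes, IKBKB, IKBKG, MAP3K7 and RBCK1, none of them past the threshold, changed sign under some alternatives. With library totals the log2 fold change was -0.18 for IKBKG, -0.0070 for MAP3K7 and -0.039 for RBCK1, a setting that shifted the median of all genes by -0.20. Relative to that median, MAP3K7 was at 0.18 under both scalings and RBCK1 at 0.15. Leaving out 1 library gave -0.16 to 0.037 for IKBKB and -0.0085 to 0.0398 for IKBKG. The 2 sample pairs with the same column number did not both deviate together (r = -0.03 and 0.25). Pairs without a shared number ran from -0.47 to 0.37. With so few libraries, the check cannot tell whether equal numbers mark paired samples. On the 4 libraries that share numbers, IKBKB was at 0.0605 and IKBKG at -0.0203 without a replicate block and at 0.0575 and -0.0202 with it, CHUK had adjusted p = 0.0523 and 0.0743 by edgeR, and the calls over all genes went from 3638 to 3318. A block by the samples' own replicate numbers was not run, since columns cannot be matched to them. With 193 or more counts in every library, none of the 10 genes was near the limit of detection.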
